A study of Saccharomyces cerevisiae BY4741 with 4 samples.

Results

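The 10 genes described here encode the cytoplasmic deadenylases of budding yeast and many of their partner subunits. They were taken by their locus tags from a table of read counts for 7382 annotated features, and all 10 were in the table and passed the filter on low counts. CCR4 (YAL021C), POP2 (YNR052C), CDC39 (YCR093W), NOT3 (YIL038C), MOT2 (YER068W), CDC36 (YDL165W), CAF40 (YNL288W) and CAF130 (YGR134W) belong to the CCR4-NOT complex, and PAN2 (YGL094C) and PAN3 (YKL025C) form the PAN2-PAN3 complex. NOT5 and some other genes for CCR4-NOT proteins are not among the 10 and are given with the further genes below. The cells were wild-type BY4741, a haploid laboratory strain of Saccharomyces cerevisiae of mating type a. They were grown in YPD, a rich glucose medium, at 30 °C from an OD600 of 0.05 and harvested in exponential growth at an OD600 of 0.6. From such cultures, 2 biological replicates of total RNA and 2 of poly(A) RNA were sequenced with single-end reads of 50 bases. The poly(A) RNA had passed over oligo-dT beads and then through rRNA depletion, so effects of the 2 steps cannot be told apart.

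Most eukaryotic mRNAs end in a poly(A) tail, and shortening of this tail is the first step of the main route of mRNA decay. In yeast the PAN2-PAN3 complex trims long tails coated with the poly(A)-binding protein Pab1, and CCR4-NOT removes most of the remaining tail, after which the cap is cleaved and the body of the mRNA is degraded. CCR4-NOT is assembled on the large scaffold protein Not1, the product of CDC39, and also takes part in transcription, ubiquitylation and quality control of translation.

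The libraries held between 52851542 and 75955489 counts. Nuclear protein-coding features took 3.14% and 3.15% of the counts in total RNA and 99.8% of those in each poly(A) library, so the 10 genes had only 49 to 1564 counts each in a total RNA library and 2155 to 10489 in a poly(A) library. The 5 marker genes of a cells summed to 3242 and 4691 counts in total RNA and to 111143 and 121578 in poly(A) RNA. The 4 marker genes of alpha cells summed to 80 and 128, and to 1716 and 1775, most of it from SAG1, so the markers matched the strain's mating type. Each library averages over a culture, so expression in fewer cells and less RNA per cell cannot be told apart.

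None of the 10 genes overlapped another gene of the reference annotation (RefSeq, build R64), and none was part of a joined feature, the table's name for stretches where annotated features overlap. Each has 1 coding exon, and the distance to the next annotated gene ranged from 121 to 1018 bases. None of their 50-base stretches occurs anywhere else in the genome on either strand. Near matches with mismatches were not examined. Untranslated regions are not annotated there and were not examined. GC content ran from 36.4% in CDC39 to 45.7% in CCR4.

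CCR4, POP2 and CDC39 carry in-frame repeats of glutamine codons. They are shown because CCR4 and CDC39 differed most between the fractions and POP2 did not pass the test. A run of at least 5 CAA or CAG codons was found in these genes and in 149 of 6002 nuclear coding sequences (2.48%), and POP2 and CDC39 have 3 separate runs each, against 21 sequences (0.350%). A run of at least 5 AAT or AAC codons, which encode asparagine, was found in CCR4 and PAN3, against 98 sequences (1.63%). A longest run of each kind in each gene, and the next longest of POP2, are shown on the coding strand, 5′ to 3′, in build R64, with the repeat in capitals and 9 flanking bases on each side. A further run of 6 glutamine codons in CDC39, at codons 1321 to 1326, is as long as the one shown. For CDC39 and NOT3 a longest uninterrupted run of A is also shown in capitals, because oligo-dT selects for A. NOT3 has another of the same length, which is not shown. These runs are 7 bases long, a length reached by 34.4% of coding sequences.
CCR4 codons 15 to 24, chrI:113279-113326, minus strand: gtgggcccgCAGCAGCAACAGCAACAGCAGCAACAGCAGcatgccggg
CCR4 codons 89 to 103, chrI:113042-113104, minus strand: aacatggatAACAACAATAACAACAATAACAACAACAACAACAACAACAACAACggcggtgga
POP2 codons 81 to 91, chrXIV:720366-720416, minus strand: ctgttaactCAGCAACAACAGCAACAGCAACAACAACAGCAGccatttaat
POP2 codons 112 to 126, chrXIV:720261-720323, minus strand: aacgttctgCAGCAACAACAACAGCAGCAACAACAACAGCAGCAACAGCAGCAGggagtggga
CDC39 codons 1035 to 1040, chrIII:283210-283245, plus strand: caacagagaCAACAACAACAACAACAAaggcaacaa
CDC39 run of A, chrIII:282532-282556, plus strand: gatgaattgAAAAAAAgtttgacac
NOT3 run of A, chrIX:282595-282619, minus strand: agggtctttAAAAAAAttaacgaag
PAN3 codons 127 to 132, chrXI:391875-391910, minus strand: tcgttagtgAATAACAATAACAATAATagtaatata

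The comparison between fractions asked how the deadenylase transcripts differed between poly(A) and total RNA, relative to the typical feature. Of the 10 genes, 8 were lower and 1 was higher in poly(A) RNA by edgeR's quasi-likelihood test (Benjamini-Hochberg adjusted p under 0.05 over 6945 features), where 31.2% of all features tested were lower and 31.0% higher. The share was larger among long genes. Of coding features between 2500 and 4000 bases, the class of CCR4, NOT3, CAF130 and PAN2, 84.3% were lower. Of those above 4000 bases, the class of CDC39, 100% were lower. Between 1500 and 2500 bases, the class of MOT2 and PAN3, 47.7% were lower. Between 750 and 1500 bases, the class of POP2 and CAF40, 17.8% were lower and 45.8% higher. Up to 750 bases, the class of CDC36, 56.3% were higher. The median log2 fold change of the 10 was -0.95, beside 0.04 for all features tested. Both poly(A) libraries lay below both total RNA libraries in TMM-normalised CPM (counts relative to an effective library size set by trimmed means) for 9 genes and above them for CDC36. Over all features the same held for 38.3% and 42.8%. When edgeR's glmTreat asked for more than a 2-fold change, 3 of the 10 (CCR4, CDC39 and PAN2) were lower, against 10.6% of all features.

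All fold changes are relative to the typical feature, and zero moves with the scaling. With library totals the median over all features shifted by 5.29 on the log2 scale and all 10 genes were higher, as were 98.9% of all calls in place of 49.9%. Scaled to the sum of the nuclear coding counts, the median shifted by 0.32, 67.1% of calls were higher, CAF40 was no longer called and POP2 turned to 0.18. Under each of these scalings and every other setting run, 9 of the 10 genes lay below the median of all features, CDC36 being the exception. A change of scaling moves all features by about the same amount, so it cannot test this position.

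The genes of the 2 catalytic subunits of CCR4-NOT differed from each other. CCR4, the main deadenylase, had 594 and 766 counts in total RNA replicates 1 and 2 and 3234 and 3602 in poly(A) replicates 1 and 2. After normalisation that was 68.2 and 64.7 CPM in total RNA and 9.79 and 10.7 CPM in poly(A) RNA, with no overlap between the fractions. The log2 fold change was -2.70 (SE 0.09, edgeR adjusted p = 1.30e-16), a level 6.48-fold lower. POP2 encodes the second nuclease of the complex, also known as Caf1, which joins Ccr4 to the scaffold. It had 255 and 311 counts in total RNA against 8350 and 8420 in poly(A) RNA, or 29.3 and 26.3 against 25.3 and 24.99 normalised CPM. The values did not overlap, but the log2 fold change of -0.14 (SE 0.10) did not pass the test (edgeR adjusted p = 0.218). The ratio of the 2 transcripts did not overlap between the fractions, with 0.429 and 0.406 POP2 counts per CCR4 count in total RNA against 2.58 and 2.34 in poly(A) RNA.

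The scaffold gene was lower by a similar amount to CCR4. CDC39 had 1047 and 1564 counts in total RNA, the most of the 10 genes, and 6769 and 6484 in poly(A) RNA. Its level was 120.2 and 132 normalised CPM in total RNA against 20.5 and 19.2 in poly(A) RNA. Its log2 fold change was -2.67 (SE 0.08, edgeR adjusted p = 3.86e-17). The ratio of CCR4 to CDC39 counts was 0.567 and 0.490 in total RNA against 0.478 and 0.556 in poly(A) RNA, values that overlap, with replicates 0.21 and 0.22 apart on the log2 scale.

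The genes of the NOT module among the 10 lay on both sides of zero. CDC36, which encodes Not2 and is the shortest of the 10 at 576 bases, had 49 and 78 counts in total RNA against 3946 and 4292 in poly(A) RNA. It was the only one of the 10 that was higher in poly(A) RNA, from 5.63 and 6.59 to 11.9 and 12.7 normalised CPM. Its log2 fold change was 1.00 (SE 0.14, edgeR adjusted p = 1.65e-06). NOT3, which encodes another subunit of the module, had 232 and 337 counts in total RNA against 5136 and 5697 in poly(A) RNA. It was lower in both poly(A) libraries, with a log2 fold change of -0.77 (SE 0.10, edgeR adjusted p = 7.24e-07). MOT2 encodes Not4, a RING-type ubiquitin ligase bound to the scaffold. It had 165 and 264 counts in total RNA against 3638 and 3928 in poly(A) RNA, and its log2 fold change was -0.87 (SE 0.11, edgeR adjusted p = 3.74e-07).

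The peripheral subunits CAF40 and CAF130 were both lower, by different amounts. CAF40 encodes the Armadillo-repeat protein known in animals as CNOT9. It had 335 and 488 counts in total RNA against 10137 and 10489 in poly(A) RNA, the most of the 10 genes there, and a log2 fold change of -0.37 (SE 0.09, edgeR adjusted p = 0.00101). Under scaling to the coding sum CAF40 had -0.05 (edgeR adjusted p = 0.635). CAF130, a subunit of the yeast complex, had 126 and 160 counts in total RNA against 2155 and 2399 in poly(A) RNA, the fewest there. Its log2 fold change was -1.03 (SE 0.12, edgeR adjusted p = 1.44e-07).

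Both genes of the other deadenylase were lower. PAN2, the catalytic subunit, had 222 and 310 counts in total RNA against 3012 and 3006 in poly(A) RNA, or 25.5 and 26.2 against 9.12 and 8.92 normalised CPM. The log2 fold change was -1.52 (SE 0.10, edgeR adjusted p = 1.48e-11). PAN3, which binds Pab1 and brings Pan2 to the tail, had 191 and 268 counts in total RNA against 3398 and 3376 in poly(A) RNA. Its level fell from 21.9 and 22.6 to 10.3 and 10.0 normalised CPM, and its log2 fold change was -1.14 (SE 0.10, edgeR adjusted p = 2.63e-09).

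**Figure D1:**
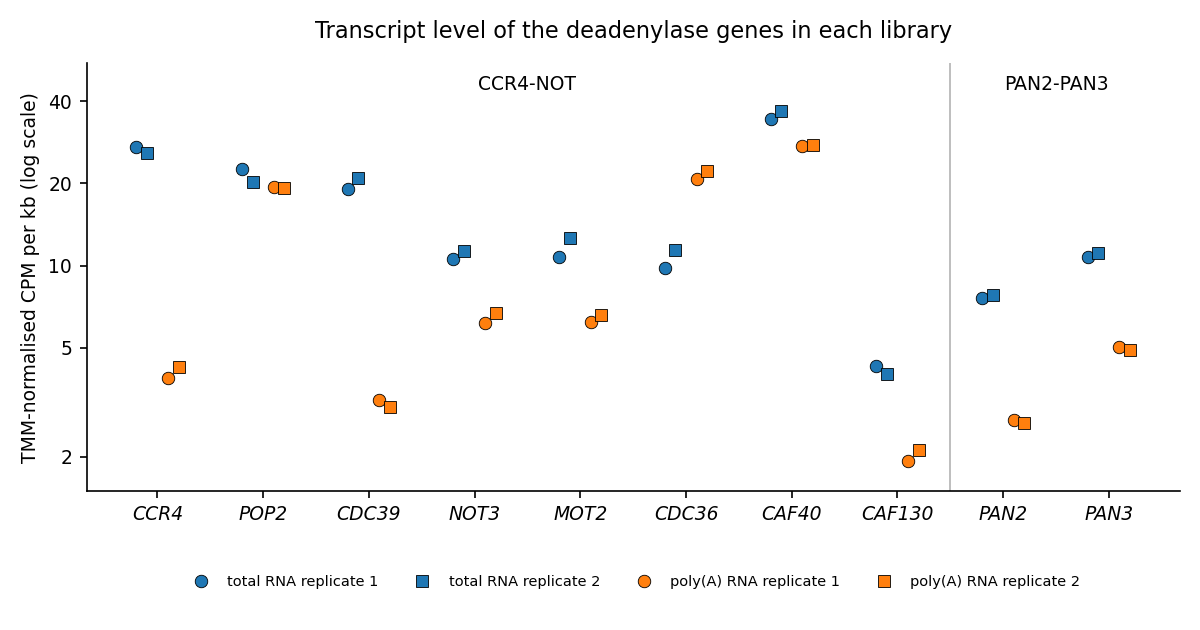
TMM-normalised CPM per kilobase of coding sequence (log scale) of each gene in the 4 libraries; each point is 1 library, circles are replicate 1 and squares replicate 2. CCR4 and CDC39 drop from means of 26.4 and 19.9 in total RNA to 4.07 and 3.14 in poly(A) RNA, and CDC36 is the only gene whose poly(A) points lie above its total RNA points.

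Levels were compared between genes per kilobase of coding sequence, as TMM-normalised CPM per kb (mean ± SD, n = 2). In total RNA, CAF40 stood at 35.5 ± 1.74, CCR4 at 26.4 ± 0.983, POP2 at 21.3 ± 1.63 and CDC39 at 19.9 ± 1.33. MOT2, NOT3, PAN3 and CDC36 followed between 10.6 and 11.7, then PAN2 at 7.72 ± 0.147 and CAF130 at 4.15 ± 0.200. Neighbours in this order overlapped for POP2 with CDC39 and along the group from MOT2 to CDC36, and the other neighbours did not overlap.

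In poly(A) RNA the order was different. CAF40 was again first at 27.5 ± 0.282 CPM per kb, but CDC36 came next at 21.4 ± 0.975 and POP2 stood at 19.3 ± 0.155. NOT3 and MOT2, whose libraries overlapped, had 6.46 ± 0.384 and 6.43 ± 0.259. PAN3 had 4.98 ± 0.0921, CCR4 4.07 ± 0.254, CDC39 3.14 ± 0.139, PAN2 2.69 ± 0.0413 and CAF130 2.02 ± 0.125, each separate from its neighbours. CCR4 thus went from rank 2 of the 10 genes to rank 7, and CDC36 from rank 8 to rank 2. Among 5772 nuclear coding features with a length, CCR4 lay at percentile 83.5 of the level per kb in total RNA against 32.5 in poly(A) RNA, and CDC39 at 78.8 and 25.5.

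**Figure D2:**
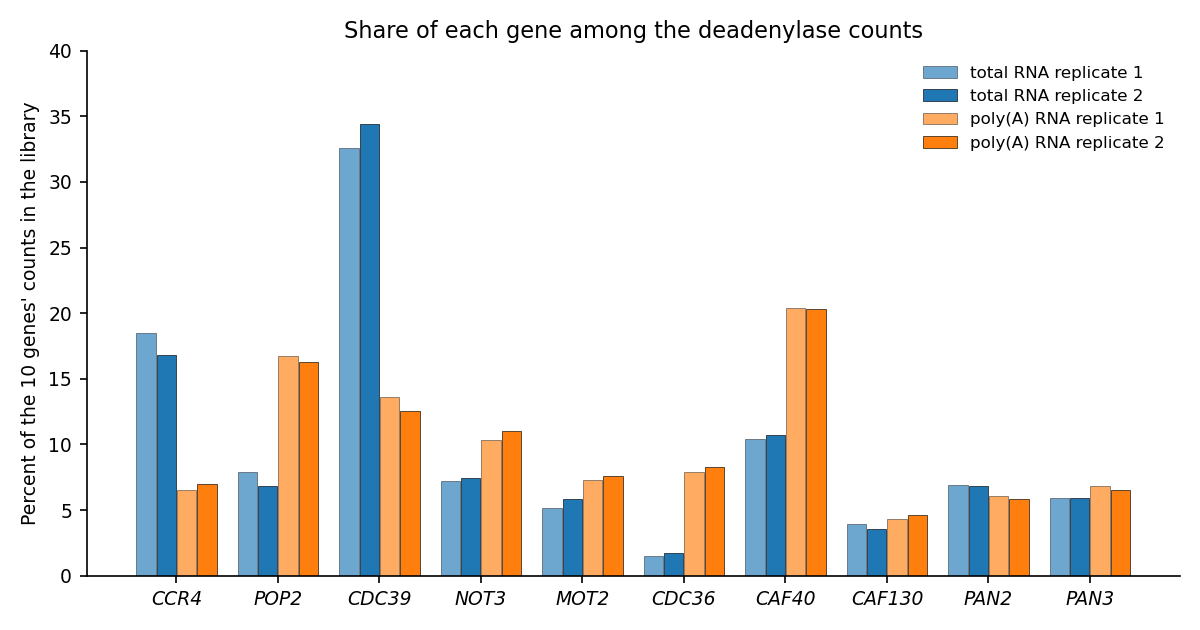
Share of each gene in the summed counts of the 10 genes (percent, 1 bar per library; no error bars, since each bar is 1 library). CDC39 has 32.6% and 34.4% in total RNA against 13.6% and 12.5% in poly(A) RNA, and CAF40 is the tallest bar in poly(A) RNA at 20.4% and 20.3%.

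Shares and ratios within a library do not depend on the scaling between libraries. CCR4 and CDC39 together made up 51.0% and 51.3% of the counts of the 10 genes in total RNA against 20.1% and 19.5% in poly(A) RNA, as the plot of shares shows gene by gene. Per 1000000 nuclear coding counts, the 10 genes held 1904 and 1903 counts in total RNA. They held 944 and 974 in the poly(A) libraries, which is 1.98-fold less. CCR4 and CDC39 went from 971 and 975 to 189.7 and 190.1 on this scale, and the other 8 genes together from 932 and 927 to 754 and 784.

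Of 24 pairs of genes compared by the log2 ratio of their counts (each gene to PAN3, CDC39 and CCR4), 22 had no overlap between the fractions. The pairs that overlapped were CCR4 to CDC39, with a difference of -0.03 between fractions, and CAF130 to PAN3, with 0.10. The exact two-sided permutation test with 2 against 2 libraries cannot go below p = 0.33, which all 22 pairs reached (0.363 after adjustment over the 24), so no single ratio could pass 0.05. The widest change was CDC36 to CCR4, from 0.0825 and 0.102 to 1.22 and 1.19, a 13.2-fold rise. The ratio of PAN2 to PAN3 changed less. PAN2 had 1.16 counts per PAN3 count in both total RNA libraries. In poly(A) RNA it had 0.886 and 0.890, a 1.31-fold change or -0.38 on the log2 scale. Replicates of either fraction were 0.01 apart on that scale. With 191 to 310 counts per gene in total RNA, such closeness of 2 replicates does not show the precision of the ratio. Per kb, PAN2 stood at 0.708 and 0.705 of PAN3 in total RNA and at 0.540 and 0.543 in poly(A) RNA.

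**Figure D3:**
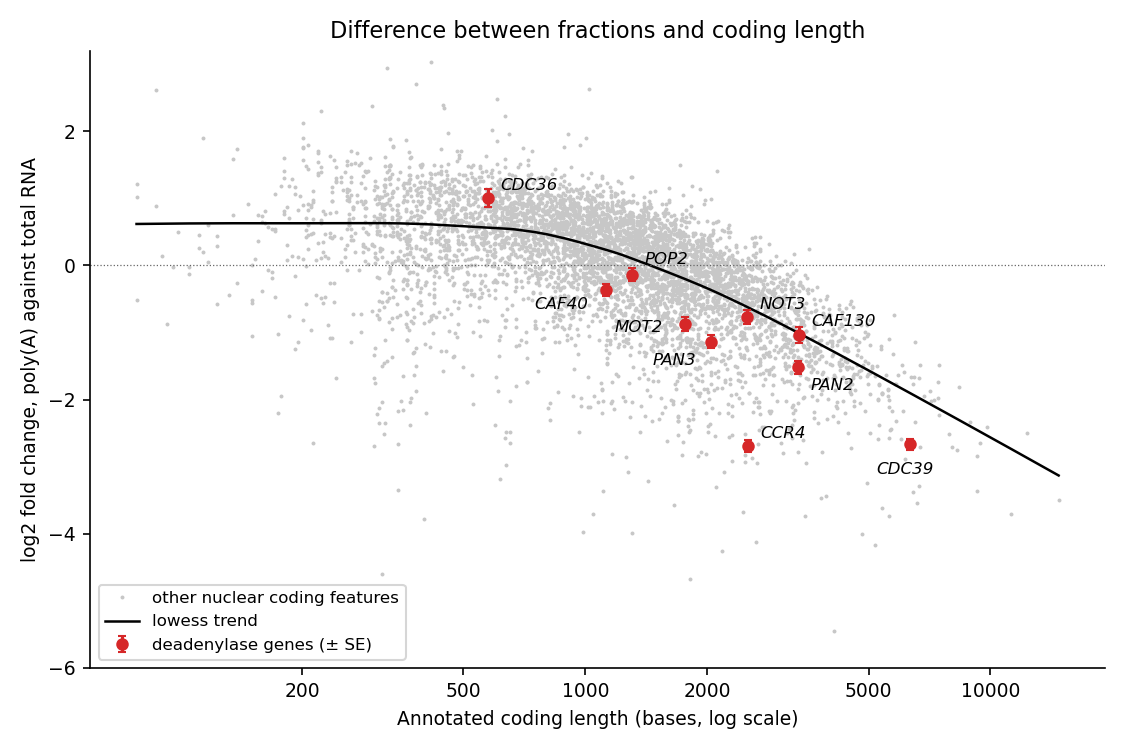
log2 fold change of poly(A) against total RNA for nuclear coding features (grey points) and the 10 genes (red, ± SE from edgeR) by coding length in bases (log scale), with a lowess trend; 2 features below and 39 above the drawn range are not shown. CCR4, at 2514 bases and -2.70, lies 2.07 under the trend, and CAF130 and NOT3 lie close to it.

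Fold changes went down with coding length, in the 10 genes as in the genome. Spearman's rho between log2 fold change and length was -0.82 over the 10 genes and -0.61 over 5772 nuclear coding features, a description across genes that share the same 4 libraries. Of 579 features between 2500 and 4000 bases, 84.3% were lower, and all 196 longer ones were. The median log2 fold change was 0.63 up to 750 bases, 0.29 up to 1500, -0.28 up to 2500, -0.82 up to 4000 and -1.62 above that. Against genes in the same length class, CDC36 was at percentile 73.7 of the log2 fold change, NOT3 at 54.1, CAF130 at 39.0, POP2 at 25.5, MOT2 at 20.8, CAF40 at 16.6, PAN2 at 16.2, PAN3 at 13.8 and CDC39 at 9.18. CCR4 was at percentile 1.73. CCR4 and NOT3 show the contrast most directly, since their coding sequences are 2514 and 2511 bases long and their log2 fold changes -2.70 and -0.77.

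With the length trend subtracted, the values were -2.07 for CCR4, -0.77 for PAN3, -0.77 for CDC39, -0.67 for MOT2, -0.60 for CAF40, -0.52 for PAN2, -0.24 for POP2, -0.15 for NOT3, -0.02 for CAF130 and 0.44 for CDC36. NOT3, which at 2511 bases is near the lower edge of its length class, was at percentile 38.3 of these values over coding features with a length. The trend stood at -1.90 for the length of CDC39, whose log2 fold change was -2.67, and at -0.62 for that of CCR4, whose log2 fold change was -2.70. Whether length itself is behind these differences was not tested.

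Codon repeats were looked at as a further property after the values had been seen, so the following is a description only. The 148 coding features with a run of at least 5 CAA or CAG codons had a median log2 fold change of -0.82, against 0.09 for the 5624 without one. After subtraction of the length trend the medians were -0.42 and 0.05. For the 98 features with a run of AAT or AAC codons the median after subtraction was -0.36, against 0.05 for those without. CCR4 is one of 17 features with both kinds of run, of which 16 were lower and whose median after subtraction was -0.87. The median length of these 17 was 2526 bases, close to the border of 2 length classes. Of all features, 84.3% of those between 2500 and 4000 bases were lower, and 47.7% of those between 1500 and 2500. POP2, with the longest glutamine run of the 10 genes (15 codons), lay at -0.24 after subtraction. Whether the repeats are behind these differences was not tested.

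Genes with the most similar profile were sought by Euclidean distance over the 4 libraries of log2(CPM per kb + 1). The nearest of 5771 features to CCR4 were NRD1 (distance 0.364) and YBR238C (0.371), with log2 fold changes of -2.83 and -3.08. POP2 was nearest to YKR018C (0.129) and RPN6 (0.133), and PAN2 to BPT1 (0.0679) and OXP1 (0.0917).

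**Figure D4:**
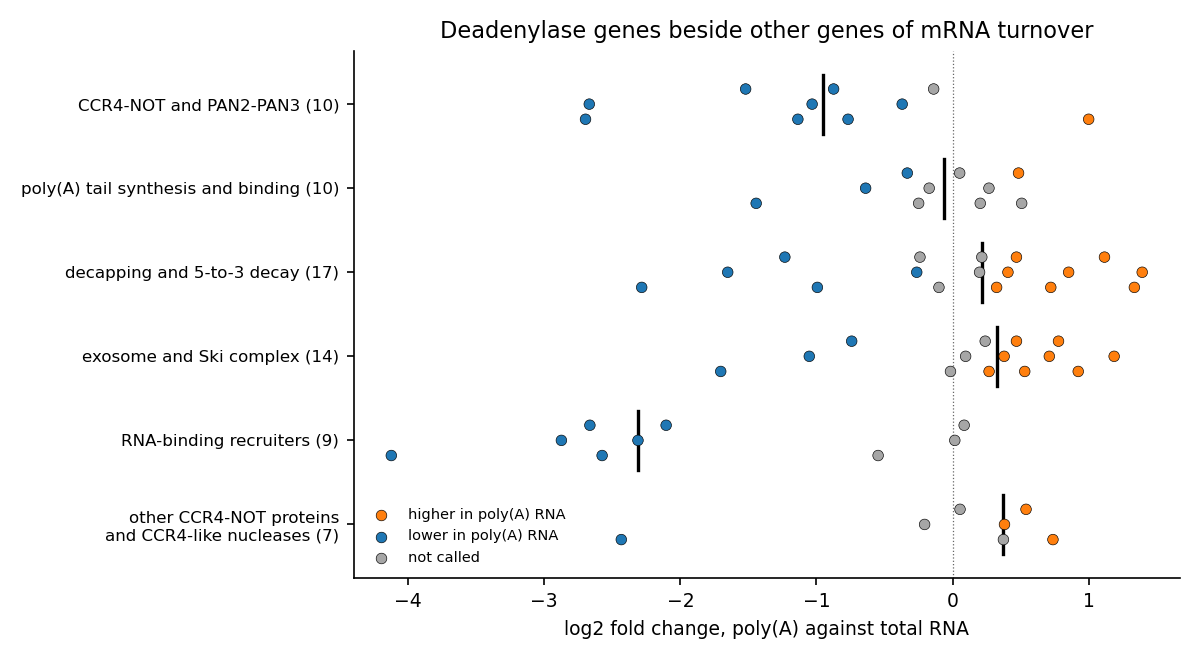
log2 fold change of poly(A) against total RNA for each of the 10 genes and of 57 other genes of mRNA turnover in 5 lists; each point is 1 gene, coloured by its edgeR call, and black bars are medians. The 10 genes have a median of -0.95, the RNA-binding recruiters -2.31, and the other 4 lists between -0.06 and 0.37.

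Other genes of the tail and of mRNA decay were placed beside the 10, and their counts stand beside 31.2% lower and 31.0% higher over all features. Of 10 genes of poly(A) tail synthesis and binding, 3 fell and 1 rose (5 rose under scaling to the coding sum), and the median log2 fold change was -0.06. PAB1, which encodes the main poly(A)-binding protein, had 1740 and 2804 counts in total RNA against 26891 and 26792 in poly(A) RNA, and a log2 fold change of -1.44 (SE 0.08, edgeR adjusted p = 1.69e-12). MTR4, a helicase of nuclear RNA surveillance, had -0.64 (SE 0.09). Of 17 genes of decapping and 5′-to-3′ decay, 8 rose and 5 fell, and the median was 0.21. Most of those that rose were 261 to 696 bases long, and of all features up to 750 bases 56.3% were higher. DHH1, a helicase that binds CCR4-NOT and promotes decapping, had -2.28 (SE 0.09), and the exonuclease XRN1 had -1.65 (SE 0.08). Of 14 genes of the exosome and the Ski complex, 8 rose and 3 fell, and the median was 0.32. Those that rose were 672 to 1185 bases long, and of all features between 750 and 1500 bases 45.8% were higher. The exosome subunit CSL4 had 1.19 (SE 0.12) and the helicase SKI2 -1.70 (SE 0.09).

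RNA-binding proteins, several of which are known to bring CCR4-NOT to particular mRNAs, had 6 of 9 genes lower and 0 higher by edgeR, also 0 higher at an unadjusted p under 0.05 and by DESeq2, but 2 higher under scaling to the coding sum. Their median was -2.31. JSN1, PUF2, PUF3, PUF4 and MPT5, which make up all but 1 of the lower genes, are 2580 to 3276 bases long, and of all features between 2500 and 4000 bases 84.3% were lower and 0.345% higher. PUF3, which encodes a Pumilio-family protein that binds mRNAs for mitochondrial proteins, had 419 and 593 counts in total RNA against 972 and 909 in poly(A) RNA, with a log2 fold change of -4.12 (SE 0.10). MPT5, another Pumilio-family gene, had -2.87 (SE 0.10). Of 7 further genes for CCR4-NOT proteins and CCR4-like nucleases, 3 rose and 1 fell, and the median was 0.37, but only 1 rose without total RNA replicate 1. CAF120 had -2.43 (SE 0.12) and CAF16 0.74 (SE 0.14). NOT5, a close relative of NOT3 named here after its values were seen, had 225 and 274 counts in total RNA against 8365 and 8544 in poly(A) RNA, and its log2 fold change of 0.06 (SE 0.10) did not pass (edgeR adjusted p = 0.647).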

How the data were processed

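The values are read counts, whole numbers that were not normalised, given per feature and library in the table the authors deposited. The submitters' processing notes name FastQC 0.11.8, cutadapt 1.18, Bowtie2 2.3.4.3 and build R64 and assign them no role. Which program counted the reads, whether by strand, and how it placed reads with several matches is not given in the sources used here. RNA had been extracted with hot acidic phenol, and libraries were made from 50 ng with random hexamers and 14 PCR cycles, per the labels. Of the table's lines, 5 were empty. All 4 count columns were matched to a sample by title.

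Symbols, coordinates and coding lengths came from RefSeq build R64 by locus tag, matching 5901 of 6760 single features. Coding lengths hold no untranslated regions. Total counts per library ran from 52851542 to 75955489.

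Differences were tested with edgeR 4.0.16 (R 4.3.3): filterByExpr, TMM, quasi-likelihood F test, Benjamini-Hochberg over all 6945 features at 0.05, and glmTreat against a 2-fold change. SE is the log2 fold change over the root of F. A link between replicate numbers across fractions is not stated in the labels, so the fit had no block. The p-values rest on 2 libraries per fraction, with the spread between libraries estimated partly across features. The length trend was a lowess fit (statsmodels 0.14.6, span 0.5). Alternatives included DESeq2 1.42.0.

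The genes and lists were chosen with earlier results of these data known. Named from each list were PAB1, the 2 genes with the largest absolute log2 fold change and any gene above 100 CPM per kb in poly(A) RNA. As most similar, the 2 nearest profiles were named. JSN1, PUF2, PUF4 and NOT5 were named outside this rule, with the results known.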

Additional observations from a re-analysis of the deposited data

How the results depend on the processing

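With library totals in place of TMM, 10 of the 10 genes were higher and 0 lower by edgeR (0 also lower at an unadjusted p under 0.05), as were 6860 and 75 of all features. The log2 fold changes were then 2.61 for CCR4, 5.17 for POP2, 2.64 for CDC39, 4.54 for NOT3, 4.44 for MOT2, 4.94 for CAF40, 4.28 for CAF130, 3.79 for PAN2 and 4.17 for PAN3. Library totals hold the rRNA of total RNA, so this reversal follows from the scaling. Scaled to the nuclear coding sum, POP2 had 0.18. The ratio of CCR4 to CDC39 changed sign without total RNA replicate 1 (0.073) or poly(A) replicate 1, and ranged from -0.142 to 0.0757 over the libraries left out. With each replicate left out, all 10 genes kept their direction. Adding joined features could change nothing, since none of the 10 genes was part of one. Other settings were the DESeq2 Wald test, DESeq2 size factors, no low-count filter, at least 10 CPM in 2 libraries and, added after seeing the data, nuclear coding features only. In each of these, all 10 genes kept their direction and their call, with 1 higher and 8 lower. With a replicate block the members' counts were also 1 and 8, and those of all features 2200 and 2191 in place of 2153 and 2164. Same-numbered libraries had correlated deviations from the group mean (r = 0.325). With 2 replicates per fraction both pairs give the same r by construction, so this is a single value and does not establish a pairing. Without one replicate, the count of all features that were higher ranged from 1841 to 2085 and of those lower from 1891 to 2072. Under scaling to the coding sum, 5 tail genes and 2 recruiters were higher, and without poly(A) replicate 1, 2 tail genes. Depth in total RNA, down to 49 counts for CDC36, limits the smaller differences.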
